A study of Drosophila melanogaster with 4 samples.

Results

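The genes described here encode the contractile machinery of Drosophila muscle apart from the actins. They are 32 genes of thick filaments, thin filaments, elastic filaments and Z discs, with the muscle regulator Mef2 and the nuclear anchor Msp300, taken by symbol from a deposited table of 17475 genes. All 32 symbols were found once. The values come from ovaries of 7-day-old adult Drosophila melanogaster kept at 25 °C, in 4 libraries. Of these, 2 are control libraries of w1118, a white-eyed laboratory strain with a wild-type wuho gene per the labels, and 2 are from flies with wh7, an allele of wuho in the w1118 background. wuho codes for a protein with WD repeats, whose yeast counterpart belongs to a tRNA methyltransferase. The study's question was how ovarian transcripts differ between the mutant and the control.

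A sarcomere is the repeating unit of striated muscle, in which myosin thick filaments pull on actin thin filaments anchored in Z discs. Calcium acts through troponin and tropomyosin on the thin filament to allow contraction, and giant elastic proteins link thick filaments to Z discs. The fly ovary holds such muscle in a net around the whole organ and in a sheath around each ovariole, the string of developing egg chambers, where contraction moves eggs towards the oviduct. Many sarcomere proteins have several gene copies or isoforms, some of them used mainly in the flight muscles of the thorax.

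The values are FPKM, read numbers scaled to transcript length and library size, so levels of different genes can be compared per length. As an estimate from low values, 1 FPKM over 1 kb of transcript rested on 19.3 to 20.5 reads. FPKM summed to 682413 and 757801 in controls 1 and 2 and to 723859 and 753290 in wh7 1 and 2. The description fields of the samples name another experiment, against tkv, so wuho itself was looked at. Control libraries held 24.7 and 25.4 FPKM of wuho, and the wh7 pair held 0.832 and 0.646 FPKM. Labels do not say whether the libraries of a genotype came from separate flies, so the spread between them may be technical. In bulk ovary, a higher level cannot be told apart as more muscle cells, more RNA per muscle cell or fewer other cells.

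Most sarcomere genes were far higher in wh7 ovaries than in control ovaries, and none was called lower. Of the 32 genes, 28 reached 1 FPKM in at least 2 libraries and were tested with limma on log2(FPKM + 1), and 25 of these rose at an adjusted p under 0.05 (Benjamini-Hochberg over 8580 genes). Over all tested genes 21.2% rose and 18.4% fell. A gene low in controls can pass that filter only through wh7, so the 21 members with at least 1 FPKM in both controls were counted separately. Of them 18 rose, where 13.5% of the 7529 genes with such control levels did. In 11 of the 21 the rise was at least 10-fold in mean FPKM, which 0.810% of the 7529 genes reached with a call. The median log2 change over all 32 members was 2.43, against -0.04 over all tested genes.

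The 28 tested members had groups that did not overlap, as did 77.0% of all tested genes in either direction. In all of them but Actn wh7 was the higher group, as in 35.7% of all tested genes. The 3 tested members that were not called were the tropomyosin gene Tm1, the alpha-actinin gene Actn and Mef2. The 4 members too low to be tested were fln, Zasp67, TpnC41C and TpnC25D. By the ratio of mean FPKM, 17 of the 25 called genes rose at least 10-fold, where 4.81% of all tested genes were so called. TpnC4 is among the 17 although its controls rested on fewer than 3 reads, and 16 remain without it. Another 5 rose between 5-fold and 10-fold, and 3 rose less than 5-fold. With no filter on low values 7 of the 25 calls held, those of Mf, Prm, Tm2, up, TpnC73F, Chd64 and Zasp66. Without control 1, 19 members were called higher.

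**Figure D1:**
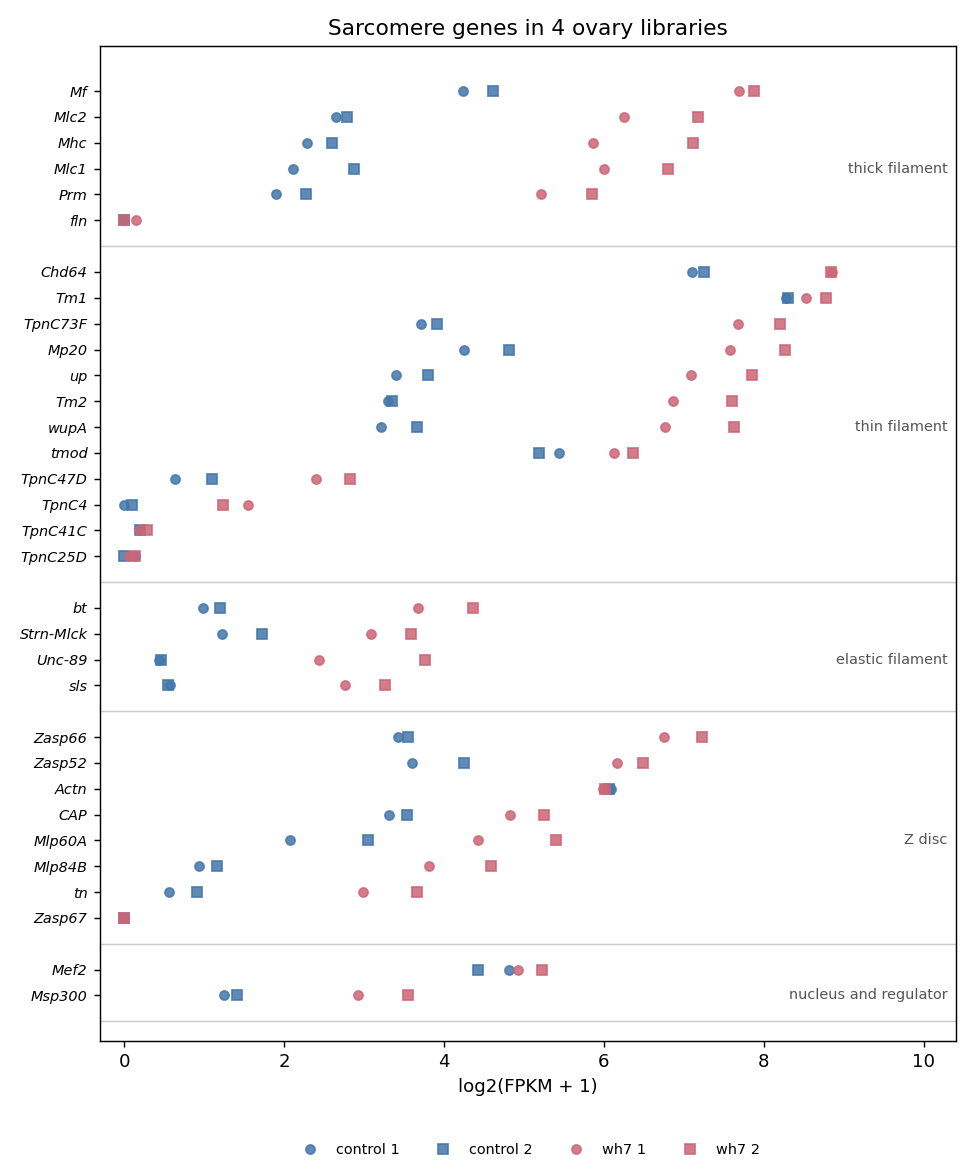
Level of each of the 32 sarcomere genes in each of the 4 ovary libraries, on the log2(FPKM + 1) scale and grouped by the part of the sarcomere. Blue marks are controls and red marks are wh7, circles replicate 1 and squares replicate 2. Red marks lie to the right of blue marks for all genes except Actn and the 4 members too low to be tested.

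In the thick filament, 5 of 6 genes rose and the sixth, fln, was nearly absent. Mhc (FBgn0264695), the muscle myosin heavy chain gene of the fly, lies on the plus strand of chromosome 2L at 16766566 to 16788766 in BDGP6, with 21 annotated transcripts. It stood at 3.90 and 5.06 FPKM in controls and at 57.2 and 137 FPKM in wh7. Both wh7 libraries were far above both controls, and wh7 2 was 2.40 times wh7 1. The rise was 21.7-fold in mean FPKM, and the log2(FPKM + 1) change was 4.04 ± 0.431 (SE; limma adjusted p = 0.00693).

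The myosin light chains followed the heavy chain closely. Mlc2 (FBgn0002773, chromosome 3R, 30171438 to 30174551, minus strand), the regulatory light chain gene, read 5.30 and 5.92 FPKM in controls and 75.5 and 144 FPKM in wh7. Mlc1 (FBgn0002772, chromosome 3R, 27657078 to 27660177, minus strand), which encodes the essential light chain, read 3.34 and 6.31 FPKM in controls and 63.0 and 111 FPKM in wh7. For each gene the groups were far apart, and wh7 2 was the highest library. Mlc2 rose 19.6-fold and Mlc1 18.0-fold, with limma adjusted p of 0.00516 and 0.00592.

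Prm and Mf encode paramyosin and myofilin, proteins of the thick filament core. Prm was at 2.73 and 3.86 FPKM in controls and at 36.2 and 56.6 FPKM in wh7, a 14.1-fold rise (limma adjusted p = 0.00514). Mf was the most abundant thick filament transcript per length in every library, at 17.9 and 23.5 FPKM in controls and at 207 and 235 FPKM in wh7. Its 2 wh7 libraries differed by a factor of only 1.14, and it rose 10.7-fold with a limma adjusted p of 0.00281. fln, which encodes flightin, a thick filament protein of flight muscle, was listed at 0 in both controls and in wh7 2 and read 0.106 FPKM in wh7 1, which corresponds to about 2.6 reads.

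Thin filament genes held the highest levels of the whole set, and 9 of the 12 rose. TpnC73F (FBgn0010424, chromosome 3L, 17046063 to 17048390, plus strand), a gene for troponin C, the calcium sensor of the thin filament, was at 12.1 and 14.1 FPKM in controls and at 204 and 294 FPKM in wh7. Its log2 change was 4.13 ± 0.197 (SE; limma adjusted p = 0.00281), a 19.01-fold rise to 249 ± 63.7 FPKM (SD, n = 2). The genes of the other troponin subunits rose in similar proportion. up, which encodes troponin T, stood at 9.55 and 12.9 FPKM in controls and at 136 and 229.8 FPKM in wh7, a 16.3-fold rise (limma adjusted p = 0.00514). wupA, which encodes troponin I, stood at 8.27 and 11.7 FPKM in controls and at 107 and 197.5 FPKM in wh7, a 15.3-fold rise (limma adjusted p = 0.00545).

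The tropomyosin genes Tm1 and Tm2 lie next to each other on the plus strand of chromosome 3R, at 15278220 to 15308779 and 15310193 to 15315197. Their proteins bind along the actin filament and control access of myosin. Tm2 read 8.85 and 9.19 FPKM in controls and 116 and 193 FPKM in wh7. The groups were widely separated, and Tm2 rose 17.2-fold (3.91 ± 0.253 on the log2 scale, SE; limma adjusted p = 0.00391). Tm1 read 311 and 317 FPKM in controls and 370.1 and 440.2 FPKM in wh7. It is the most abundant member in controls, and its change was 0.36 ± 0.109 (SE) with a limma adjusted p of 0.0552. That p ranged from 0.0333 to 0.217 over the alternatives and passed the threshold after median ratio scaling, without wh7 1 and with a replicate block. Tm1 has 18 annotated transcripts, which include cytoplasmic forms that act in the germline in transport of osk mRNA, and a gene-level FPKM does not separate them.

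Among the calponin-like genes, Mp20 encodes a muscle protein that binds actin, and Chd64 an actin-binding protein found more widely. Mp20 was at 18.1 and 27.3 FPKM in controls and at 190.2 and 306 FPKM in wh7, a rise of 10.95-fold (limma adjusted p = 0.00546). Chd64 was at 137 and 151 FPKM in controls and at 460.3 and 459 FPKM in wh7, which made it the most abundant member there. Its 3.19-fold rise had the smallest SE of the called members, with a log2 change of 1.67 ± 0.0833 (SE; limma adjusted p = 0.00281). tmod encodes tropomodulin, which caps the slow-growing end of the thin filament. It was at 42.4 and 35.5 FPKM in controls and at 69.2 and 81.3 FPKM in wh7, and its 1.93-fold rise was the smallest among the called members (limma adjusted p = 0.0113).

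Troponin C has 5 genes among the members, and their levels differed by orders of magnitude. TpnC47D followed TpnC73F at a distance, at 0.553 and 1.14 FPKM in controls and at 4.27 and 6.12 FPKM in wh7 (6.12-fold, limma adjusted p = 0.0127). Its call was lost after quantile normalization and without control 1 or wh7 2, in a range of adjusted p from 0.00997 to 0.0918. TpnC4, which is used mainly in flight muscle, was listed at 0 in control 1 and read 0.0706 FPKM in control 2, about 1.2 reads, and 1.92 and 1.36 FPKM in wh7. It is the only called member besides Chd64 that was lower in wh7 2 than in wh7 1, and with controls so near 0 no fold is given. The limma adjusted p of TpnC4 was 0.0137, and the call was lost after quantile normalization and without either control (0.00835 to 0.234 over the alternatives). With a filter at 5 FPKM or with either wh7 library left out, TpnC4 did not pass the filter and was not tested. TpnC41C, also known from flight and jump muscle, stayed between 0.141 and 0.219 FPKM in all 4 libraries, and its groups overlapped. TpnC25D ranged from 0 to 0.102 FPKM, about 2.3 reads at most.

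**Figure D2:**
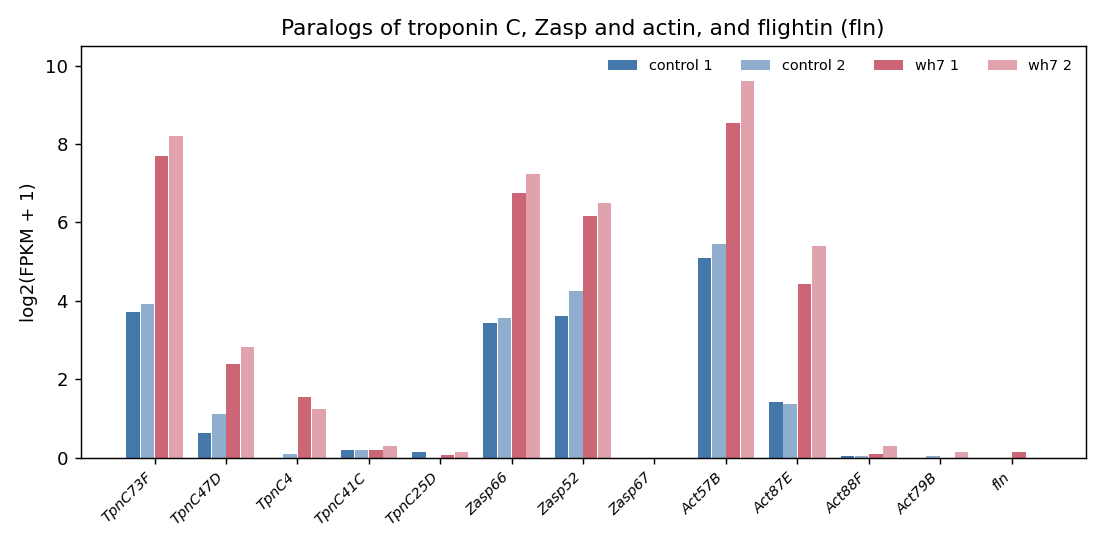
Level of troponin C, Zasp and actin paralogs and of fln in the 4 libraries, on the log2(FPKM + 1) scale, with 1 bar per library (blue controls, red wh7, paler shade replicate 2). TpnC73F, Zasp66, Zasp52, Act57B and Act87E carried high levels in wh7, whereas TpnC41C, TpnC25D, Zasp67, Act88F, Act79B and fln were under 0.25 FPKM in every library. TpnC4 lay between them, at 1.92 and 1.36 FPKM in wh7.

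The muscle actin genes, which are not members, were read beside the troponin C paralogs. Act57B, an actin of larval and visceral muscle, was at 33.3 and 42.4 FPKM in controls and at 370.3 and 779 FPKM in wh7 (15.2-fold, limma adjusted p = 0.00607). Act87E, of similar use, was at 1.65 and 1.57 FPKM in controls and at 20.7 and 41.4 FPKM in wh7 (19.2-fold, limma adjusted p = 0.00602). The calls of Act57B and Act87E were lost with no filter. Act88F, the actin of flight muscle, reached at most 0.227 FPKM and Act79B, an actin of leg and jump muscle, at most 0.0958 FPKM in any library. Of the genes known from flight muscle, fln, Zasp67, TpnC41C and Act88F were thus at or near 0 in every library, whereas TpnC4 and Strn-Mlck were called higher in wh7.

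The elastic filament genes were low per length in controls and all 4 rose. sls, which encodes kettin and titin-like proteins that tie thick filaments to the Z disc, was at 0.489 and 0.464 FPKM in controls and at 5.81 and 8.60 FPKM in wh7. The rise was 15.1-fold (2.45 ± 0.230 on the log2 scale, SE; limma adjusted p = 0.00576). bt, the projectin gene on chromosome 4, stood at 0.975 and 1.29 FPKM in controls and at 11.8 and 19.7 FPKM in wh7, a 13.9-fold rise (limma adjusted p = 0.00586). Both genes have very long transcripts, up to 56489 bases for sls and 27666 for bt, so these low FPKM rested on an estimated 567 and 506 reads of sls and 553 and 689 reads of bt in controls 1 and 2.

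Unc-89 encodes obscurin, a giant protein of the M line in the middle of the sarcomere. It was at 0.352 and 0.381 FPKM in controls and at 4.43 and 12.6 FPKM in wh7, and these wh7 values differed by a factor of 2.85, the widest gap of any called member. Its 23.3-fold rise had a limma adjusted p of 0.0169, and the call was lost after quantile normalization and without control 1 (0.00466 to 0.118 over the alternatives). With a filter at 5 FPKM or with either wh7 library left out, Unc-89 did not pass the filter and was not tested. Strn-Mlck, a gene for kinase-type proteins related to titin and known from flight muscle, was at 1.35 and 2.31 FPKM in controls and at 7.48 and 11.1 FPKM in wh7. It rose 5.08-fold (limma adjusted p = 0.0122), a call lost without control 1 (0.00816 to 0.0962 over the alternatives).

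An annotated non-coding gene on the opposite strand of sls, CR42860, shares 1089 exon bases with it and moved alongside, from 0.0896 and 0.527 FPKM in controls to 5.53 and 7.97 FPKM in wh7 (limma adjusted p = 0.00693). The sources used here do not say if strand was used in counting, so reads of sls and CR42860 cannot be told apart. Next to Mhc, 7 bases away on the opposite strand, Cyt-b5-r stood at 0.541 and 0.905 FPKM in controls and at 5.71 and 24.5 FPKM in wh7 (limma adjusted p = 0.0281, call lost after quantile normalization and without either control, 0.00913 to 0.164 over the alternatives). Both neighbours were picked after their values were seen.

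Z disc genes were mixed, with 6 of 8 called higher. Zasp66 (FBgn0035917, chromosome 3L, 8624371 to 8638813, plus strand) encodes a PDZ-domain protein that binds alpha-actinin. It was at 9.79 and 10.8 FPKM in controls and at 107 and 149 FPKM in wh7, a 12.4-fold rise (limma adjusted p = 0.00281). Zasp52, the broadly expressed paralog, was at 11.1 and 18.0 FPKM in controls and at 70.8 and 89.1 FPKM in wh7, a 5.48-fold rise (limma adjusted p = 0.00688). Zasp67, the paralog known from flight muscle, was listed at 0 in all 4 libraries.

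The muscle LIM protein genes Mlp84B and Mlp60A encode adaptors of the Z disc. Mlp84B was at 0.908 and 1.25 FPKM in controls and at 13.1 and 23.0 FPKM in wh7, a 16.7-fold rise (limma adjusted p = 0.00592). It lies inside the longer gene Alh on the same strand with no shared exon bases, and Alh went the other way, at 69.2 and 64.5 FPKM in controls and at 49.5 and 42.7 FPKM in wh7. Mlp60A was at 3.21 and 7.29 FPKM in controls and at 20.5 and 41.5 FPKM in wh7. Library 2 was 2.27 times library 1 in controls and 2.02 times in wh7, and its 5.91-fold rise (limma adjusted p = 0.0220) was not called without control 1 (0.00850 to 0.140 over the alternatives).

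tn, which encodes a TRIM-type protein that keeps myofibrils intact, rose 13.8-fold from 0.476 and 0.880 FPKM to 6.97 and 11.7 FPKM (limma adjusted p = 0.00760). CAP, an adaptor gene of integrin attachment sites, was at 8.93 and 10.7 FPKM in controls and at 27.3 and 37.0 FPKM in wh7, a 3.28-fold rise (limma adjusted p = 0.00801). Actn, which encodes the actin crosslinker alpha-actinin of muscle and non-muscle cells, did not follow. It was at 67.0 and 65.7 FPKM in controls and at 62.7 and 63.7 FPKM in wh7, with a log2 change of -0.07 ± 0.0723 (SE; limma adjusted p = 0.475), and its sign turned after quantile normalization and median ratio scaling. Actn shares 265 exon bases with usp on its own strand and 826 with east on the other, and both of those genes were lower in wh7, usp at 0.709 and east at 0.635 of the control mean. CG4313, which shares 196 exon bases with Actn on the other strand, went the other way, from 5.73 and 5.43 FPKM in controls to 7.52 and 13.8 FPKM in wh7 (limma adjusted p = 0.0952).

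Msp300, a nesprin that anchors muscle nuclei to the cytoskeleton, was at 1.37 and 1.66 FPKM in controls and at 6.61 and 10.7 FPKM in wh7. Its 5.70-fold rise had a limma adjusted p of 0.0102, and the call was lost without control 1 (0.00581 to 0.0885 over the alternatives). A small non-coding gene that shares 157 exon bases with Msp300 on the same strand was at 10.2 and 3.20 FPKM in controls and at 45.8 and 53.6 FPKM in wh7, and reads of this pair cannot be told apart. Mef2, the transcription factor that switches on sarcomere genes, was at 27.1 and 20.4 FPKM in controls and at 29.3 and 36.4 FPKM in wh7. Its groups did not overlap, but control 1 and wh7 1 lay close together, and the change of 0.46 ± 0.185 (SE) missed the threshold (limma adjusted p = 0.110).

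**Figure D3:**
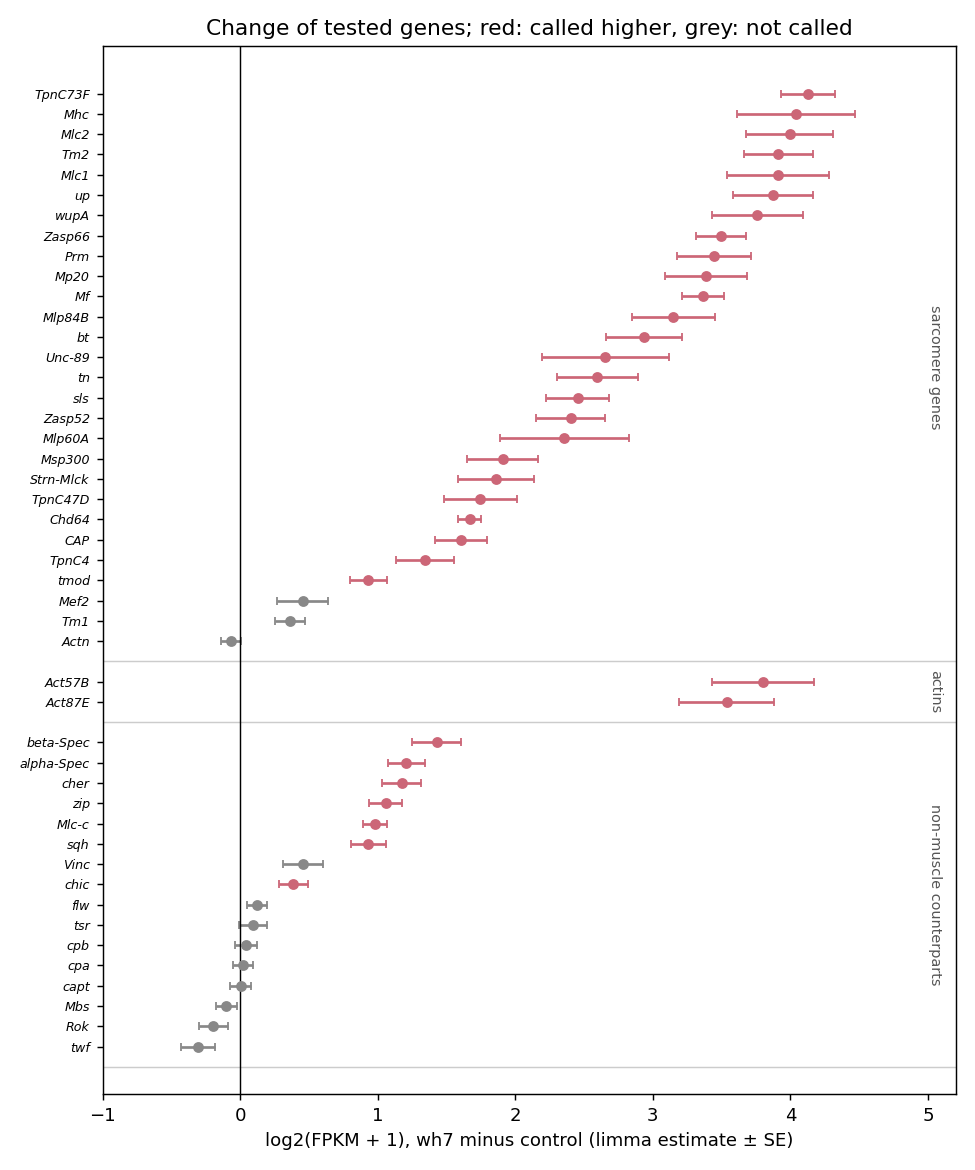
Change between wh7 and control on the log2(FPKM + 1) scale for the 28 tested sarcomere genes, 2 tested muscle actins and 16 non-muscle cytoskeletal genes, as limma estimates with their SE. Red points were called higher and grey points were not called. Sarcomere genes reach 4.13, and the non-muscle genes lie between -0.31 and 1.43.

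The order of the members by level differed between genotypes more than between libraries of a genotype. Spearman's rho over the 32 members, as a description, was 0.990 between the controls and 0.987 between the wh7 libraries, and 0.852 to 0.895 across genotypes. In controls the 5 highest members were Tm1, Chd64, Actn, tmod and Mef2, genes also used outside muscle. In wh7 TpnC73F, Mp20 and Mf took ranks 3 to 5 after Chd64 and Tm1, while tmod stood at rank 14, Actn at rank 15 and Mef2 at rank 17. The 32 genes together made up 0.105% and 0.101% of summed FPKM in controls and 0.341% and 0.452% in wh7.

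Members also differed between the libraries of a genotype in a common direction. Of the 25 called members, 23 were higher in wh7 2 than in wh7 1, with a median ratio of 1.61, while over all 1820 genes called higher the median was 1.15 and 1315 were above 1. In controls, 22 of 24 called members with a value above 0 in control 1 were higher in control 2, with a median ratio of 1.32, against 1.15 over 1720 called genes. The exceptions were Chd64 and TpnC4 in wh7 and sls and tmod in controls. The eggshell gene Cp36 had another pattern, at 390.2 FPKM in control 1, 3571 in control 2, 1479.9 in wh7 1 and 249 in wh7 2. Vm26Aa and Vm32E, also of the eggshell, were likewise highest in control 2, at 3092 and 547 FPKM, and were lower in wh7 2 than in wh7 1 (1217 against 2561 FPKM and 31.9 against 338 FPKM).

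Ratios of the FPKM of 2 genes within a library do not depend on how that library was scaled. They were compared with exact two-sided permutation tests over libraries, on log2 ratios with 1 FPKM added to each gene. The added 1 FPKM makes the tested values depend somewhat on scaling and shifts them for low genes, unlike the ratios printed here. With 2 libraries against 2 such a test cannot go below 0.333. Muscle myosin genes stood higher against their non-muscle counterparts in both wh7 libraries than in either control. The ratio of Mhc to zip, the non-muscle myosin heavy chain gene, was 0.0590 and 0.0631 in controls and 0.391 and 0.861 in wh7 (exact permutation p = 0.333). Mlc2 to sqh, the non-muscle regulatory light chain gene, was 0.0387 in both controls and 0.301 and 0.470 in wh7. Mlc1 to Mlc-c, the non-muscle essential light chain gene, was 0.0304 and 0.0519 in controls and 0.283 and 0.469 in wh7. The mean ratio was 10.26, 9.96 and 9.14 times higher in wh7 for these pairs, with no overlap (exact permutation p = 0.333 each).

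Ratios between partners inside the sarcomere moved far less. Mlc2 to Mlc1 was 1.59 and 0.938 in controls and 1.20 and 1.30 in wh7, so the groups overlapped (exact permutation p = 1). up to wupA was 1.16 and 1.11 in controls and 1.26 and 1.16 in wh7, and Mhc to Prm was 1.43 and 1.31 in controls and 1.58 and 2.43 in wh7. Paralog ratios lay further apart. TpnC73F to TpnC47D was 21.9 and 12.3 in controls and 47.8 and 48.1 in wh7, and Zasp66 to Zasp52 was 0.879 and 0.597 in controls and 1.505 and 1.67 in wh7. Tm2 to Tm1 went from 0.0285 and 0.0290 to 0.313 and 0.439, and Mp20 to Chd64 from 0.132 and 0.180 to 0.413 and 0.668. Mlp84B to Mlp60A went from 0.283 and 0.171 to 0.638 and 0.554 (exact permutation p = 0.333 for each of these pairs but Mlc2 to Mlc1). In all, 12 ratios were compared, and none could pass after adjustment.

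**Figure D4:**
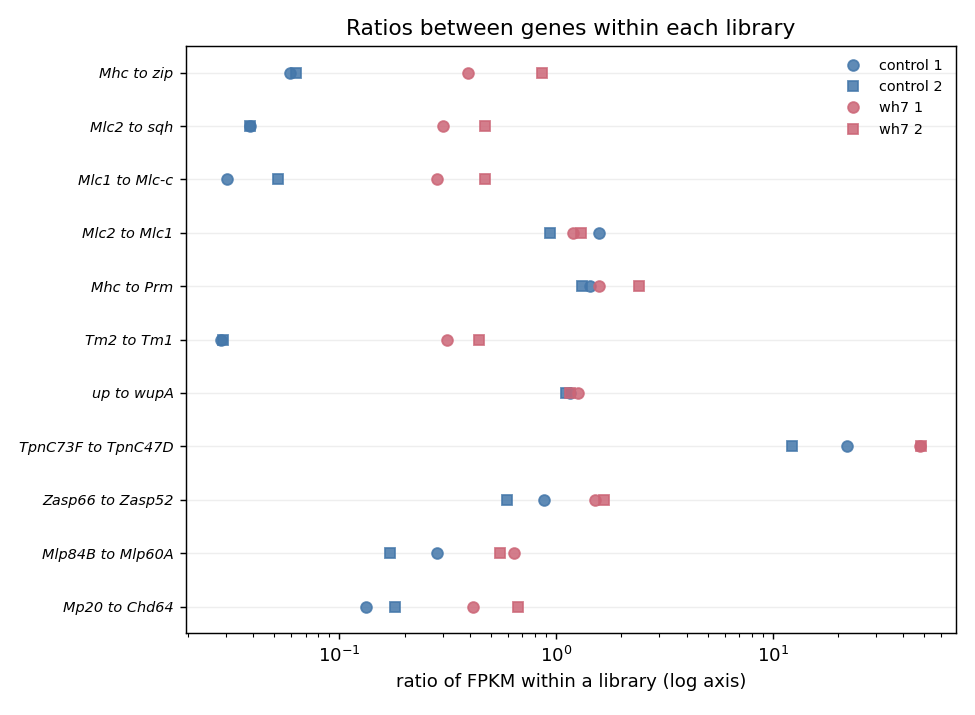
Ratio of the FPKM of a pair of genes within each library, on a log axis, for 11 pairs (blue controls, red wh7, circles replicate 1, squares replicate 2). Muscle to non-muscle pairs such as Mhc to zip are far apart by genotype. The pair up to wupA differs little between genotypes, though without overlap, and for Mlc2 to Mlc1 the groups overlap. TpnC73F to TpnC4 is left out because TpnC4 was listed at 0 in control 1.

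The non-muscle cytoskeletal list itself held 16 tested genes, of which 7 rose (1 with no filter) and 0 fell, with a median log2 change of 0.25. Its most abundant genes were tsr, the cofilin gene, at 1118 and 1154 FPKM in controls and 1197 and 1229 FPKM in wh7 (limma adjusted p = 0.495), and chic, the profilin gene. chic went from 835 and 845 FPKM to 1042 and 1158 FPKM (limma adjusted p = 0.0452, lost when any single library was left out, 0.0279 to 0.249 over the alternatives). sqh rose 1.92-fold to 278 ± 39.1 FPKM, with a limma adjusted p of 0.0101 (call lost without control 1, 0.00511 to 0.0768 over the alternatives). zip, chosen for its pairing with Mhc, rose 2.09-fold (limma adjusted p = 0.00753).

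Other muscle genes changed unevenly. With no filter, 0 of 11 genes for calcium handling and excitation and 2 of 16 muscle attachment genes were called higher. In that fit 3 of 19 muscle differentiation genes and 1 of 10 genes for filament assembly and muscle chaperones were called higher. Of 10 tested genes for calcium handling and excitation 5 rose and 0 fell, but between 1 and 3 rose when a library was left out (1 without control 1, 2 without control 2 or wh7 2, 3 without wh7 1) and 2 after quantile normalization. The most abundant, the arginine kinase gene Argk, was at 189 and 167 FPKM in controls and at 265 and 298 FPKM in wh7, a 1.58-fold rise (limma adjusted p = 0.0138). Ca-P60A, the calcium pump of the sarcoplasmic reticulum, was at 195 and 216 FPKM in controls and at 184 and 202 FPKM in wh7 (limma adjusted p = 0.474). Gpdh, a gene of energy supply in muscle, was at 109.7 and 117 FPKM in controls and at 101 and 88.6 FPKM in wh7 (limma adjusted p = 0.0865). Besides Argk, the genes that rose were CalpA, 2.19-fold, and the low genes RyR, slo and Ca-alpha1D. From under 0.3 FPKM in both controls, these low genes reached 2.47 and 6.84, 1.41 and 4.17, and 1.85 and 2.87 FPKM in wh7. They passed the filter only through wh7, and their calls were lost after quantile normalization. Of 15 tested muscle attachment genes 11 rose and 0 fell (5 without control 1 or wh7 2, 7 without control 2). They were led in level by the collagen IV gene Cg25C, 3.40-fold higher, and trol, the perlecan gene, 4.17-fold higher (limma adjusted p = 0.00774 and 0.00688). Pax, the paxillin gene, followed with a 1.82-fold rise (limma adjusted p = 0.0160, lost without control 1 or control 2, 0.00433 to 0.101 over the alternatives).

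Of 19 muscle differentiation genes 9 could be tested, 6 rose and 1 fell (2 rose without control 1 or control 2, 3 without wh7 2). exd, a homeobox cofactor gene, was 1.004-fold (limma adjusted p = 0.971), how, an RNA-binding protein gene of muscle and tendon, rose 1.51-fold (limma adjusted p = 0.0127, lost without control 1 or control 2, 0.00874 to 0.0637 over the alternatives) and sd rose 2.39-fold (limma adjusted p = 0.00545). Of these 19 genes, 5 were listed at 0 in both controls. Of 10 genes for filament assembly and muscle chaperones 5 rose and 1 fell (1 rose without control 1, 2 without wh7 2, 3 without control 2 or wh7 1, and 0 fell). The most abundant, the chaperone gene Hsp83, read 1478 and 1558 FPKM in controls and 1179 and 1608 FPKM in wh7 (limma adjusted p = 0.572). The largest rises were in less abundant genes. Hsp67Bc rose 15.8-fold, stv 12.6-fold and l(2)efl 7.26-fold (limma adjusted p = 0.0290, 0.0231 and 0.0261), and these calls were lost without control 1. Those of Hsp67Bc and stv were also lost without control 2, that of Hsp67Bc after quantile normalization and that of l(2)efl without wh7 2. In wh7 1 and 2, Hsp67Bc was at 6.52 and 26.3 FPKM, stv at 19.6 and 74.4 FPKM and l(2)efl at 11.3 and 25.5 FPKM. sals went from 0.602 and 0.868 FPKM in controls to 7.92 and 8.25 FPKM in wh7 (limma adjusted p = 0.00514). It passed the filter only through wh7, and its call held in every alternative that tested it. Lasp rose 1.31-fold (limma adjusted p = 0.0458) and DAAM, a formin gene, was at 0.782 of the control mean (limma adjusted p = 0.0385). Both calls were lost when any single library was left out, with adjusted p of up to 0.171 for Lasp and 0.197 for DAAM over the alternatives.

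Marker lists of other cells were read in the same libraries, to be set against the 21.2% of all tested genes that rose, and their part in the muscle result was not tested. Hemocyte markers rose in 6 of 7 tested genes (5 after quantile normalization and 2 of 10 with no filter). Only 4 hemocyte genes reached 1 FPKM in both controls, and Pxn, Sr-CI and Hml, all called higher, passed the filter only with wh7 values. The 10 hemocyte genes summed to 38.0 and 56.8 FPKM in controls and 241 and 334 FPKM in wh7, with NimC1 and gcm at 0 in both controls. The most abundant, crq, Nplp2 and vir-1, rose 9.60-fold, 9.25-fold and 5.37-fold (limma adjusted p = 0.00679, 0.00713 and 0.0110), and the call of vir-1 was lost without control 1 (0.00127 to 0.0895 over the alternatives). Fat body genes rose in 4 of 5 tested, the 11 summing to 12.1 and 17.8 FPKM in controls and 92.2 and 89.04 FPKM in wh7, with Lsp1alpha, Fbp1 and Fbp2 at 0 in both controls. Among the fat body genes that rose, Tsf1 passed the filter only with wh7 values, from 0.0732 and 0.151 FPKM in controls. Obp99a, Lip4 and Rfabg led this list, with rises of 7.11-fold, 4.54-fold and 3.89-fold (limma adjusted p = 0.00912, 0.00993 and 0.0384). The call of Rfabg was lost without control 1, control 2 or wh7 2 (0.0110 to 0.267 over the alternatives).

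The 11 neural markers summed to 2.64 and 3.49 FPKM in controls and 13.4 and 14.4 FPKM in wh7, with Cha, Rdl and VGlut at 0 in both controls. No gene of this list reached 1 FPKM in both controls, so its tested genes passed the filter only with wh7 values. The 3 tested, elav, nrv3 and Appl, rose 6.78-fold, 3.64-fold and 2.67-fold (limma adjusted p = 0.00548, 0.0140 and 0.0276), of which 1 was called when any library was left out. Oviduct and gland genes rose in 3 of 5 tested, the 8 summing to 44.96 and 45.3 FPKM in controls and 71.4 and 82.5 FPKM in wh7, with Send2 at 0 in both controls. CG18067 rose 10.38-fold and Fmo-2 1.58-fold, whereas Hr39 was at 0.900 of the control mean (limma adjusted p = 0.00325, 0.0435 and 0.373). When a library was left out, fat body genes rose in 2 or 3 and oviduct and gland genes in 1, the call of Fmo-2 being lost each time (0.0221 to 0.255 over the alternatives).

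Follicle cell genes rose in 8 of 13 tested (8 after quantile normalization and 1 of 14 with no filter). The 14 summed to 1684 and 7336 FPKM in controls and 4724 and 1929 FPKM in wh7, groups that overlapped. These sums are mostly those of the eggshell genes Vm26Aa, Cp36 and Vm32E, which were not called. The 8 genes that rose were Fas3, tj, Timp, eya, Mmp2, peb, br and cas, from 2.57-fold for br to 15.7-fold for cas. Tracheal genes rose in 1 of 3 tested (0 to 2 when a library was left out), the 7 summing to 26.3 and 26.4 FPKM in controls and 34.6 and 56.6 FPKM in wh7. osp and Gasp were 1.26-fold and 4.03-fold higher without a call (limma adjusted p = 0.133 and 0.0820), and pio was called at 20.0-fold (limma adjusted p = 0.0399, lost without control 1 or control 2, 0.0187 to 0.195 over the alternatives). Germline genes rose in 3 and fell in 1 of 11 (1 rose without wh7 2), with sums of 1802 and 1808 FPKM in controls and 1706 and 1829 FPKM in wh7. osk was at 584 and 592 FPKM in controls and 503 and 618 FPKM in wh7, stai at 262 and 282 FPKM in controls and 295 and 231 FPKM in wh7, and their groups overlapped. The 3 germline genes that rose were piwi, 1.87-fold, aub, 1.48-fold, and bgcn (limma adjusted p = 0.00516, 0.0382 and 0.00545). bgcn went from 0.146 and 0.348 FPKM in controls to 4.95 and 4.57 FPKM in wh7. The call of aub was lost with no filter, without control 1, control 2 or wh7 2, and with no mean-variance trend. In the follicle cell, tracheal and germline lists, cas, pio and bgcn were called higher but passed the filter only with wh7 values. nos, a gene of germline development, fell to 0.659 of the control mean (limma adjusted p = 0.00874, lost without control 1, 0.00874 to 0.0513 over the alternatives). The 32 sarcomere genes summed to 714 and 765 FPKM in controls and to 2472 and 3407 FPKM in wh7.

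In the authors' deposited table, 22 of the 32 members were marked significant and higher in wh7, where 7.23% of all 17475 genes were. Of the 17475 genes, 8895 were too low to be tested here, as were 4 of the members. The authors' deposited table did not mark 3 genes called here, Mlp84B (q = 0.125), Strn-Mlck (q = 0.0953) and TpnC4 (q = 0.491). In the authors' deposited table of ontology terms, Z disc held 17 genes with a 4.52-fold enrichment (Benjamini adjusted p = 1.28e-05), and 8 of these were members. Myofibril assembly held 10 genes in the authors' deposited table, 7 of them members (6.41-fold, Benjamini adjusted p = 0.00175), and sarcomere organization 12, 6 of them members (3.85-fold, Benjamini adjusted p = 0.0276). Muscle contraction, with 5 genes in the authors' deposited table of which 2 were members, did not pass (Benjamini adjusted p = 0.1199).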

How the data were processed

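Ovary RNA of 2 control and 2 wh7 libraries was prepared with a strand-specific Agilent SureSelect kit and read as 75-base single ends, per the labels' protocols. The tools bcl2fastq 2.0 and Bowtie 0.12.2 and the builds BDGP6 and mm8 appear, with no stated role, in the submitters' processing notes. Expression was deposited as FPKM for each library, per the file headers. The value 0.0001 is the floor of these columns and was read as 0. For each gene the authors deposited a wh7 to control ratio, the same ratio as log2, and p-values with q-values. For ontology terms the authors deposited gene numbers, fold enrichment (a ratio) and p-values. The program that made these values is not named in those sources. All 4 library columns were used and 0 were left out.

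Gene positions come from a BDGP6 annotation that holds 98.3% of the deposited identifiers, 99.8% of these on the same chromosome. wupA was matched by symbol, and 23 of the 32 members have the same start and end in both. FPKM of genes whose deposited span is longer may be less exact.

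The 8580 genes that reached 1 FPKM in 2 or more libraries were fitted with limma 3.58.1 in R 4.3.3 on log2(FPKM + 1) with a mean-variance trend. This scale understates the change of low genes. Adjusted p are limma's, with a threshold of 0.05, and rest on spread pooled over genes (prior degrees of freedom 2.69). On simulated data with 8580 genes, 72% of 2-fold and 98% of 4-fold changes were recovered, with 6 false calls. There, 50 genes per fold were raised and none lowered, all drawn from genes above a minimum mean level. These rates may not hold for low members or for data with as many calls in both directions as here. Approximate reads come from the FPKM of 1 read in single-transcript genes and the longest transcript.

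Members and lists were chosen with earlier results of these data known. Of 189 list entries, 184 were matched, 5 of them through current symbols. All members were named, together with the 3 most abundant genes of each other list and the muscle actins. Genes outside this rule were chosen after their values were seen, as were the pairs for ratios. They are zip, Mlc-c, neighbours of members, markers at 0 and further genes that rose in the excitation, filament assembly, follicle cell and germline lists. The alternatives tried were another pseudocount, filter, scaling or variance model, a replicate block and leaving out each library.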

Additional observations from a re-analysis of the deposited data

How the results depend on the processing

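The count of members called higher was 25, and 25 with a pseudocount of 0.1, 22 with a filter at 5 FPKM, 22 after quantile normalization, 26 after median ratio scaling and 25 with no mean-variance trend. It was 19 to 24 when a single library was left out and 7 with no filter on low values. Members called lower were 0 in all of these fits. The number of all genes called was 3403, falling to 1238 with no filter and to between 764 and 2363 when a library was left out (764 without control 1, 1565 without control 2, 1226 without wh7 2). With no filter, 17475 genes were fitted, most of them at or near 0, and the cause of the lost calls was not tested further. With a filter at 5 FPKM, the called members TpnC4, TpnC47D and Unc-89 were not tested, and the other calls of members held. With either wh7 library left out, TpnC4, Unc-89, sls and tn were not tested. The median log2 change of the 32 members, 2.43, was 3.43 with a pseudocount of 0.1, 1.73 after quantile normalization and 2.10 to 2.77 when a library was left out. Actn, not called in any fit, turned from -0.07 to 0.028 with quantile normalization and to 0.036 with median ratio scaling. The latter shifted the median log2 change over all tested genes by 0.10. With 1 FPKM added to each gene, the difference in log2 ratio of Mlc2 to Mlc1 was 0.09. It ranged from -0.22 to 0.39 when a library was left out.

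The libraries share only a replicate number. With the replicate block, 26 members (Tm1 added) and 3624 genes were called. Deviations of same-numbered libraries correlated at -0.165 over 8580 genes, and with the crossed replicate block, added after seeing the data, 25 members and 2729 genes were called. Depth limits fln, Zasp67, TpnC25D, TpnC41C and TpnC4, whose values rest on few reads or none.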
